A study of Mus musculus with 12 samples.

Results

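The genes described here are 33 that supply amino acids and one-carbon units, with the ATF4 and C/EBP factors and stress genes known to act with them. They were chosen by name. Rows of the transcript table carrying those symbols were summed per gene, which took 65 of 63759 transcripts into 33 of 32699 gene symbols. All 33 symbols were in the table, and all 33 passed the filter on low counts. The study sequenced RNA of purified mouse splenic B cells labelled Chd4 knockout (KO) or wild type (WT), in 12 libraries. CHD4 is the chromatin-remodelling ATPase of the NuRD complex. The 4 groups of 3 libraries were KO cells cultured for 48 hr in lipopolysaccharide (LPS, a bacterial wall component that activates B cells) at 10 µg/ml plus mouse interleukin 4 (IL-4) at 25 ng/ml, WT cells under the same stimulation, KO cells left unstimulated (0 hr), and WT cells left unstimulated. The labels name no floxed allele, Cre driver, strain, sex or age, and do not say whether replicates were separate animals or cultures, so the p-values below measure the spread between these libraries, which may be technical.

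Some properties of the series touch every result. Library totals ran between 38956484 and 53189198 estimated counts. Chd4 itself had 51.3, 38.8 and 74.7 CPM (estimated counts scaled to a common library total) in KO libraries at 48 hr, against 102, 96.1 and 123 CPM in WT. At 0 hr Chd4 had 100, 70.6 and 92.8 CPM in KO libraries, against 99.4, 68.1 and 92.8 CPM in WT, so its RNA did not separate the labels there. The position of the deleted part is not given in the sources used here, and the names KO and WT stand for the labels. Xist averaged 0.94 CPM in KO and 78.7 CPM in WT at 48 hr, and the Y-linked Ddx3y averaged 117 and 21.4 CPM, so genotype and sex-linked RNA moved together and cannot be told apart. None of the 33 genes lies on X or Y. The B cell markers Cd79a, Cd79b, Ms4a1, Pax5, Cd22 and Blnk were present in every library and summed to 5040 to 5850 CPM in KO and 5600 to 6160 CPM in WT at 48 hr, and to 6100 to 7870 CPM in KO and 6050 to 7680 CPM in WT at 0 hr. The biological coefficient of variation between replicates, from edgeR, was 23.9% in KO and 14.3% in WT at 48 hr, and 31.1% in KO and 17.7% in WT at 0 hr. KO 48 hr replicate 12 and KO 0 hr replicate 6 stood apart from the other KO libraries: on the second principal component (6.53% of variance) they lay at 6.65 and 9.74, against -23.9 or below in the other 4 KO libraries and 15.3 or above in the WT libraries. Without KO 48 hr replicate 12 the counts of the 33 genes called below were 1 between genotypes at 48 hr, and 27 higher and 3 lower with stimulation in KO, and without KO 0 hr replicate 6 they were 1, 27 and 3, the same counts as with all libraries. At 0 hr between genotypes 1 was called without KO 0 hr replicate 6, beside 0 with it.

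Resting lymphocytes make little protein or DNA, and stimulation commits them to growth, for which they need amino acids, purines and thymidylate. Serine made from glycolytic intermediates or taken up gives a carbon to tetrahydrofolate, and that carbon reaches nucleotides and methyl groups through enzymes paired between cytosol and mitochondria. ATF4 is the transcription factor of the integrated stress response. It binds, often with a C/EBP partner, to a composite site in genes for amino acid synthesis and uptake, and its own output is set largely at translation, which RNA levels do not show.

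That composite site can be sought as the letters TGATGNAA on either strand. RefSeq promoters (GRCm38.p6, from 250 bases before to 50 after the gene start) were at hand for 28 of the 33 genes. Of these 28, 6 held a match (21.4%), against 3.97% of all 32851 promoters and 4.51% of 27025 genes. The list was chosen by name around amino acid supply and ATF4, so a higher share in it is not a test of the site. No RefSeq promoter was used for Aldh1l2, Slc7a5, Slc1a5, Slc38a1 and Cth. The 6 stretches are shown because they include the gene that differed between genotypes at 48 hr (Slc7a11) and some of the genes with the largest change on stimulation. Each is written along the gene's strand with the match in capitals.
Asns, chr6:7693214-7693243, minus strand: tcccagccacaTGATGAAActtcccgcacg
Slc7a11, chr3:50443628-50443704, minus strand: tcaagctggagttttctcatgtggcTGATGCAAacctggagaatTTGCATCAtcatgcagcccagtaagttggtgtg
Slc1a4, chr11:20332699-20332728, minus strand: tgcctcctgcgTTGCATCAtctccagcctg
Chac1, chr2:119351024-119351081, plus strand: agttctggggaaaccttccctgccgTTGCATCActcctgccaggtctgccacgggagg
Trib3, chr2:152344028-152344057, minus strand: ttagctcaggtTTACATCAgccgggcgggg
Pycr1, chr11:120643819-120643876, minus strand: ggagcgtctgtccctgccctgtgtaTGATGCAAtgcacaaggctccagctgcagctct
Slc7a11 alone among the 28 held 2 matches, one on each strand. At least 2 matches occurred in 23 of the 32851 promoters (0.07%). The matches of Slc1a4 and Trib3 lay across or after the RefSeq start. The Asns match lay before its RefSeq start, but its stretch lies inside the gene as placed by GENCODE M21 (7675169 to 7693254). The E-box CACGTG is a palindrome read the same on both strands and a site of MYC family proteins. It was found in 2 of the 28 genes (Aldh18a1 and Cbs, 7.14%), against 8.09% of all 27025 genes. Of all promoters 7.15% held it. A match is a stretch of letters and not a measured site, and the motifs do not overlap in sequence.

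After 48 hr of LPS and IL-4 most of the 33 genes were higher in both genotypes. In KO cells 27 rose and 3 fell by edgeR's quasi-likelihood test at an adjusted p below 0.05, and in WT cells 25 rose and 2 fell. Over all 19125 tested genes 70.7% passed that test in KO and 73.9% in WT, with 33.0% higher in each genotype, 37.7% lower in KO and 40.9% lower in WT. Libraries of the 2 times did not overlap for 29 of the 33 genes in KO (87.9%) and 27 in WT (81.8%), beside 72.5% of all genes in KO and 79.8% in WT, of which 39.5% and 44.9% were lower at 48 hr and 33.0% and 34.9% higher. The median log2 fold change of the 33 was 2.56 in KO and 2.63 in WT, beside -0.30 and -0.39 over all tested genes. A change of at least 4-fold upward was fitted for 19 genes in KO and 18 in WT, and of at least 16-fold for 10 and 8. The 27 genes that passed in WT also passed in KO, 25 higher and 2 lower in both.

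The scale of these folds depends on how libraries are set level. The scaling factors, from the trimmed mean of M-values (TMM), were 0.742 to 0.766 in KO and 0.723 to 0.751 in WT at 48 hr, against 1.28 to 1.35 in KO and 1.3 to 1.42 in WT at 0 hr. Upper-quartile scaling lowered the median of all genes by a further 0.631 in KO and 0.673 in WT, and the share of called genes that were higher fell to 28.8% in KO and 27.6% in WT, against 46.7% and 44.6% with the main scaling. Under it 23 of the 33 genes rose and 7 fell in each genotype. Genes with small rises changed sign and are named below. RNA per cell was not measured, so every fold is relative to the rest of the library, and in bulk RNA fewer expressing cells and less RNA per cell cannot be told apart.

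**Figure D1:**
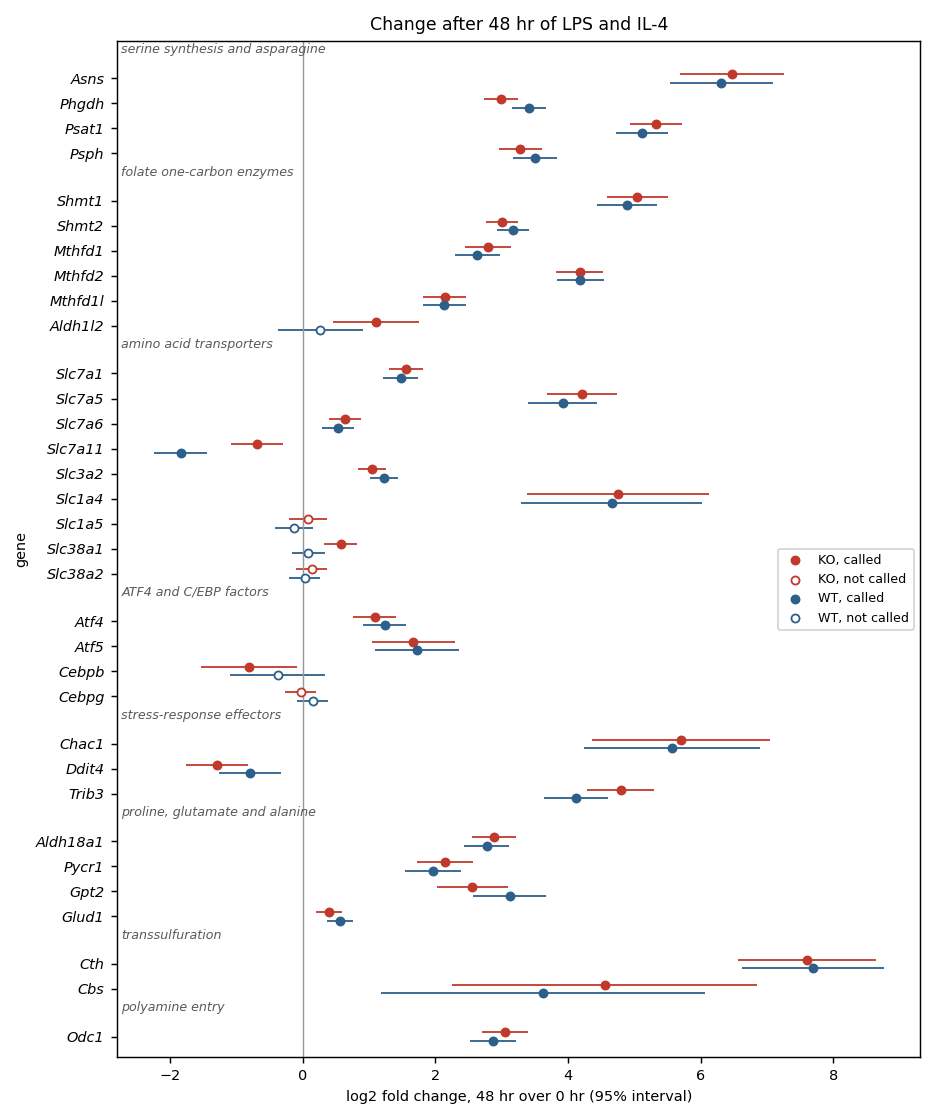
Log2 fold change of 48 hr over 0 hr for each of the 33 genes in KO (red) and WT (blue), with 95% intervals, grouped by role. Filled points passed the edgeR test. Cth and Asns lie farthest right in both genotypes, Slc7a11 and Ddit4 lie left of 0 in both, and Slc7a11 shows the widest gap between genotypes relative to its intervals.

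All 4 genes of serine and asparagine synthesis rose in both genotypes. Asns, which makes asparagine from aspartate and glutamine (chromosome 6, 7675169 to 7693254 in mm10), had 208, 195 and 279 CPM in KO and 259, 276 and 259 CPM in WT at 48 hr. At 0 hr it had 3.74, 2.94 and 1.12 CPM in KO and 2.7, 4.53 and 2.79 CPM in WT. The stimulated libraries were thus all far above the unstimulated ones, while KO and WT overlapped at both times. The log2 fold change of Asns was 6.47 in KO (SE 0.365, edgeR adjusted p = 2.23e-09) and 6.31 in WT (SE 0.361, edgeR adjusted p = 2.35e-09).

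Phgdh commits a glycolytic intermediate to serine. It had 757, 760 and 818 CPM in KO and 913, 893 and 898 CPM in WT at 48 hr, and 94.7, 106 and 92.6 CPM in KO and 74.1, 97.1 and 84 CPM in WT at 0 hr. It showed the smallest rise of the 4, by 2.99 in KO (SE 0.118) and 3.41 in WT (SE 0.12) on the log2 scale. Psat1, the transaminase of the same route, rose by 5.33 in KO and 5.11 in WT, and Psph, the phosphatase that releases serine, by 3.28 and 3.50.

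Of the 6 folate enzymes 6 rose in KO and 5 in WT, Aldh1l2 being the one that did not pass in WT. Shmt1, the cytosolic enzyme that moves the carbon of serine to tetrahydrofolate, had 277, 277 and 322 CPM in KO and 344, 327 and 336 CPM in WT at 48 hr. At 0 hr it had 7.35, 8.7 and 10.4 CPM in KO and 8.99, 15.5 and 9.44 CPM in WT. Its log2 fold change was 5.05 in KO (95% interval 4.59 to 5.50) and 4.89 in WT (4.44 to 5.35). For Shmt2, the mitochondrial form, the change was 3.00 (2.76 to 3.24) in KO and 3.17 (2.92 to 3.41) in WT, so the intervals of the 2 enzymes did not overlap in either genotype.

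The opposite order held for the dehydrogenases of the next steps. Mthfd2, the mitochondrial dehydrogenase and cyclohydrolase, rose by 4.17 in KO (95% interval 3.82 to 4.53) and 4.18 in WT (3.83 to 4.54). Mthfd1, the cytosolic enzyme that also makes formyl-tetrahydrofolate from formate, rose by 2.80 (2.45 to 3.14) and 2.63 (2.29 to 2.98). Mthfd1l, which releases formate from mitochondria, rose by 2.14 in both genotypes.

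Aldh1l2, the mitochondrial enzyme that burns formyl-tetrahydrofolate to carbon dioxide, moved least of the folate genes. It had 2.76, 1.79 and 3.94 CPM in KO and 2.29, 1.86 and 2.17 CPM in WT at 48 hr, and 1.54, 1.14 and 1.28 CPM in KO and 2.07, 1.7 and 1.49 CPM in WT at 0 hr. The KO libraries of the 2 times did not overlap, whereas the WT libraries did. The rise was 1.10 in KO (SE 0.299, edgeR adjusted p = 0.00481) and the value in WT was 0.27 (SE 0.297, edgeR adjusted p = 0.426). The difference between these changes was 0.84 (95% interval -0.07 to 1.74) and did not pass its own edgeR test (adjusted p = 0.627). The KO call ended under upper-quartile scaling (0.46, adjusted p = 0.171) and with library totals alone (0.29, adjusted p = 0.388), and its 2 transcripts parted in KO: uc007gki.2 was at -0.22 (edgeR adjusted p = 0.675) and uc007gkh.2 rose by 2.42 (edgeR adjusted p = 0.00642).

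**Figure D2:**
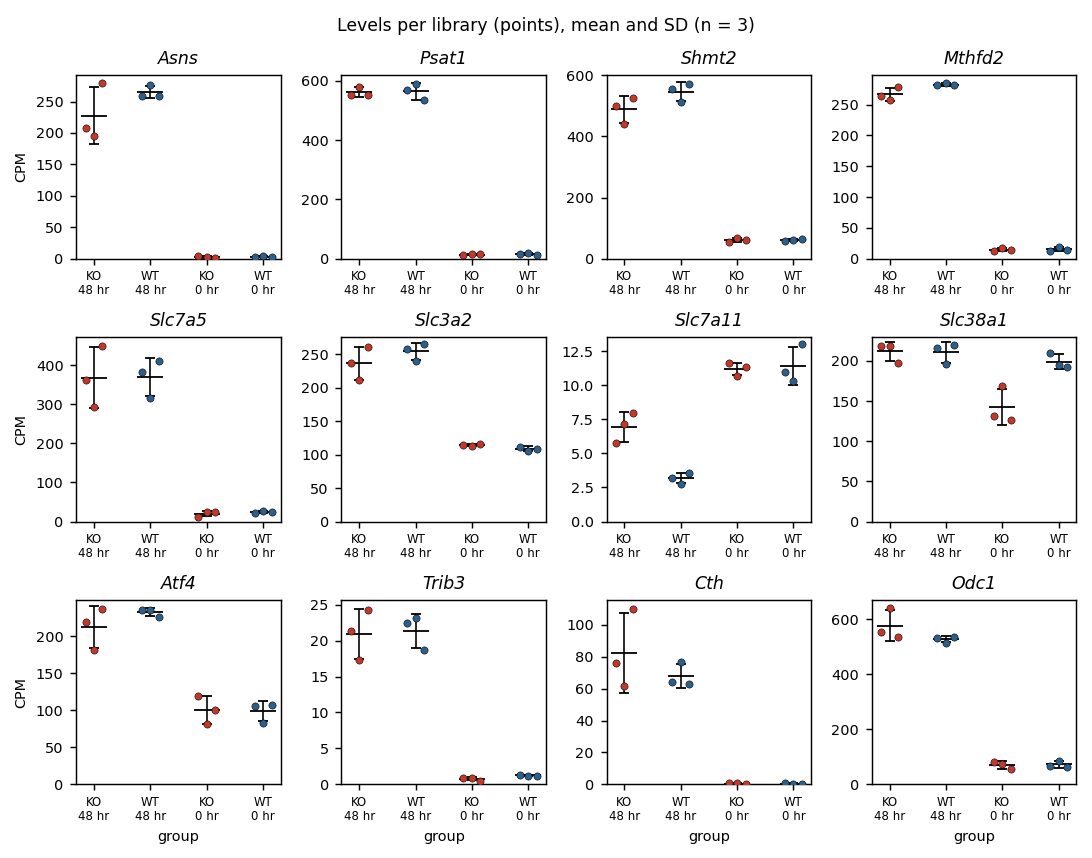
CPM per library of 12 of the 33 genes in the order KO 48 hr, WT 48 hr, KO 0 hr and WT 0 hr, each panel with its own axis from 0. Points are libraries, and bars give the mean and SD (n = 3). Slc7a11 is highest at 0 hr and, at 48 hr, higher in every KO library (5.74 to 7.93 CPM) than in any WT library (2.78 to 3.53 CPM), and Slc38a1 at 0 hr lies at 127 to 169 CPM in KO and 192 to 210 CPM in WT.

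The 9 transporters did not move as one. In KO 6 rose, 1 fell and 2 did not pass, and in WT 5 rose, 1 fell and 3 did not pass. The median of the 9 was 0.64 in KO and 0.53 in WT. Slc1a4, a carrier of serine, alanine and other small neutral amino acids, had 15.7, 16.7 and 18 CPM in KO and 19.7, 15.6 and 22 CPM in WT at 48 hr. At 0 hr it had 0.0949, 0.231 and 1.48 CPM in KO and 0.456, 0.731 and 1.07 CPM in WT, the KO values spread most widely. Its log2 fold change was 4.75 in KO (SE 0.636, edgeR adjusted p = 1.53e-05) and 4.66 in WT (SE 0.633, edgeR adjusted p = 1.68e-05). KO 0 hr replicate 6 set the KO baseline: without it the KO change was 6.63.

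Slc7a5 carries large neutral amino acids such as leucine across the membrane as a pair with the heavy chain Slc3a2. Slc7a5 had 363, 292 and 449 CPM in KO and 383, 316 and 411 CPM in WT at 48 hr, and 12.5, 23.3 and 23.7 CPM in KO and 21.7, 28 and 23.8 CPM in WT at 0 hr. It rose by 4.21 in KO and 3.92 in WT. Slc3a2, the partner chain of several light chains, had 237, 211 and 261 CPM in KO and 258, 240 and 265 CPM in WT at 48 hr, against 115, 113 and 116 CPM in KO and 112, 105 and 109 CPM in WT at 0 hr. Its rise was smaller, 1.04 in KO (SE 0.0982) and 1.23 in WT (SE 0.0986), and with library totals alone the KO call ended (0.23, adjusted p = 0.0538).

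Slc7a1, the cationic carrier that brings in arginine and lysine, rose by 1.55 in KO and 1.48 in WT. Slc7a6, another light chain of Slc3a2, was higher by 0.64 in KO and 0.53 in WT, but under upper-quartile scaling it was at 0.0055 in KO (no longer called) and -0.15 in WT, and with library totals alone at -0.18 and -0.36.

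The carriers of glutamine and small neutral amino acids were already present before stimulation. Slc1a5 had 301, 248 and 300 CPM in KO and 313, 278 and 309 CPM in WT at 48 hr, and 278, 251 and 277 CPM in KO and 353, 263 and 375 CPM in WT at 0 hr. Its change was 0.07 in KO (95% interval -0.21 to 0.36) and -0.14 in WT (-0.43 to 0.15). Slc38a2 was at 0.13 in KO (-0.10 to 0.36) and 0.03 in WT (-0.20 to 0.26). The libraries of the 2 times overlapped for both genes, and neither passed the edgeR test in either genotype. Upper-quartile scaling put all 4 values below 0 and edgeR called each of them lower. Slc38a2 was then at -0.50 in KO (adjusted p = 0.000646) and -0.65 in WT (adjusted p = 6.77e-05), and Slc1a5 at -0.56 in KO (adjusted p = 0.00212) and -0.82 in WT (adjusted p = 9.59e-05). The most abundant Slc38a2 transcript, uc007xkm.1, was instead called higher in KO (0.38, edgeR adjusted p = 0.0371). The other, uc007xkn.1, was called lower in KO (-3.70, edgeR adjusted p = 3.78e-07) and in WT (-2.84, edgeR adjusted p = 1.8e-06). Slc1a5 was called lower in WT without WT 0 hr replicate 2 (-0.27, edgeR adjusted p = 0.0451).

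Slc38a1, a sodium-coupled carrier of the same family as Slc38a2, is described with the genotype comparison, because its 3 KO libraries at 0 hr were the lowest of the 12. It rose by 0.57 in KO (SE 0.116, edgeR adjusted p = 0.000613) and was at 0.08 in WT (SE 0.116, edgeR adjusted p = 0.525). Both values turned negative under upper-quartile scaling, at -0.060 in KO (not called) and -0.59 in WT (called lower, edgeR adjusted p = 0.000466). The most abundant Slc38a1 transcript, uc007xkj.2, was instead called higher in WT (0.50, edgeR adjusted p = 0.018). Also in WT, uc007xkk.2 (-1.36, edgeR adjusted p = 0.008) and uc007xkl.2 (-1.71, edgeR adjusted p = 7.34e-05) were called lower. The transcript uc007xki.2 was called higher (edgeR adjusted p = 0.000891), and uc007xkh.2 was not called (-0.11). The difference between the KO and WT changes of the gene was 0.49 (95% interval 0.14 to 0.84) and did not pass over all genes (edgeR adjusted p = 0.398).

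Slc7a11 was the transporter that fell in both genotypes. It is the light chain that, with Slc3a2, imports cystine in exchange for glutamate (chromosome 3, 49892526 to 50443614 in mm10). It had 5.74, 7.18 and 7.93 CPM in KO and 3.22, 2.78 and 3.53 CPM in WT at 48 hr, and 11.6, 10.7 and 11.3 CPM in KO and 11, 10.3 and 13 CPM in WT at 0 hr. All 6 stimulated libraries lay below all 6 unstimulated ones, the WT libraries lowest. It fell by 0.69 in KO (SE 0.181, edgeR adjusted p = 0.00395) and by 1.84 in WT (SE 0.188, edgeR adjusted p = 9.28e-07) on the log2 scale. Its promoter, printed above, carries 2 TGATGNAA matches. Asns, Slc1a4, Chac1, Trib3 and Pycr1 carry 1 each and rose, as did most of the 33 genes (27 in KO and 25 in WT). Whether the matches bear on these changes was not tested.

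Among the factors, Atf4 and Atf5 rose by the main edgeR test and the C/EBP genes did not. Atf4 had 219, 181 and 237 CPM in KO and 235, 236 and 226 CPM in WT at 48 hr, and 119, 81.4 and 100 CPM in KO and 106, 82.8 and 107 CPM in WT at 0 hr. Its RNA rose by 1.08 in KO (SE 0.15, edgeR adjusted p = 2.04e-05) and 1.24 in WT (SE 0.15, edgeR adjusted p = 5.55e-06). Upper-quartile scaling kept both calls, and library totals alone ended them (0.27 in KO, adjusted p = 0.126, and 0.34 in WT, adjusted p = 0.0581).

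Atf5, a relative under similar translational control, had 2.41, 2.61 and 1.82 CPM in KO and 1.93, 1.86 and 2.35 CPM in WT at 48 hr, against 0.835, 0.57 and 0.75 CPM in KO and 0.737, 0.455 and 0.668 CPM in WT at 0 hr. It rose by 1.67 in KO and 1.72 in WT. Between 82.6% and 98.1% of its counts in each group were assigned to a transcript annotated as non-coding, so these levels speak little of the coding form.

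Cebpg, a dimer partner of ATF4, had 42.4, 43.7 and 46.9 CPM in KO and 43.5, 44.6 and 46.6 CPM in WT at 48 hr, and 45.4, 41.8 and 48.9 CPM in KO and 45.6, 37.6 and 38.2 CPM in WT at 0 hr. Its change was -0.03 in KO (95% interval -0.27 to 0.20) and 0.15 in WT (-0.09 to 0.39), neither called by edgeR. Upper-quartile scaling gave called falls of -0.66 and -0.53, whereas DESeq2 called a rise in WT (0.25, adjusted p = 0.0338). Cebpb, an activator of inflammatory and stress genes, had 13.4, 12.6 and 21.2 CPM in KO and 17.1, 9.02 and 13.8 CPM in WT at 48 hr, and 22.4, 44.4 and 15.8 CPM in KO and 19.6, 16.4 and 16 CPM in WT at 0 hr. The KO libraries of the 2 times overlapped, and KO 0 hr replicate 5 stood highest. Its summed myeloid markers were also the highest of the KO 0 hr libraries (383 CPM, against 182 and 130 CPM). Their part in the Cebpb level was not tested. Cebpb fell by 0.81 in KO (SE 0.335, edgeR adjusted p = 0.0435), a call that held in 6 of 12 fits that left out 1 library and that became -0.28 (adjusted p = 0.385) without KO 0 hr replicate 5. It was called in 5 of 10 other settings and missed the threshold in the rest, such as limma-voom (adjusted p = 0.087). It was at -0.38 in WT (edgeR adjusted p = 0.312).

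The stress effectors split. Chac1, which breaks down glutathione, had 9.95, 7.47 and 13.8 CPM in KO and 11.9, 12.6 and 10.4 CPM in WT at 48 hr, against 0, 0.169 and 0.397 CPM in KO and 0.386, 0.178 and 0.158 CPM in WT at 0 hr. It rose by 5.70 in KO (SE 0.623, edgeR adjusted p = 1.99e-06) and 5.57 in WT (SE 0.618, edgeR adjusted p = 2.22e-06), and without KO 0 hr replicate 6 the KO value was 6.80. Trib3, a pseudokinase that feeds back on ATF4 output, had 21.4, 17.3 and 24.2 CPM in KO and 22.4, 23.1 and 18.7 CPM in WT at 48 hr, and 0.911, 0.832 and 0.529 CPM in KO and 1.32, 1.17 and 1.21 CPM in WT at 0 hr. Trib3 rose by 4.79 in KO and 4.11 in WT.

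Ddit4, an inhibitor of mTORC1 that is induced by stress and glucocorticoids, moved the other way. It had 17.1, 9.95 and 19 CPM in KO and 18.3, 16.2 and 17.1 CPM in WT at 48 hr, and 28.1, 40.7 and 44.4 CPM in KO and 30.1, 28 and 31.5 CPM in WT at 0 hr. No stimulated library reached the lowest unstimulated one. Ddit4 fell by 1.30 in KO (SE 0.217, edgeR adjusted p = 0.000121) and by 0.80 in WT (SE 0.215, edgeR adjusted p = 0.00449).

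Genes of proline, glutamate and alanine metabolism rose, by unequal amounts. Aldh18a1, which starts proline synthesis from glutamate, had 233, 211 and 269 CPM in KO and 257, 215 and 265 CPM in WT at 48 hr, against 25.7, 35.8 and 35.1 CPM in KO and 32.6, 40.8 and 34.7 CPM in WT at 0 hr, a rise of 2.88 in KO and 2.77 in WT. Gpt2, the mitochondrial alanine aminotransferase, had 23.6, 15.2 and 27.9 CPM in KO and 23.5, 23.7 and 28.6 CPM in WT at 48 hr, and 4.86, 3.22 and 3.28 CPM in KO and 2.46, 3.6 and 2.67 CPM in WT at 0 hr. It rose by 2.56 in KO and 3.12 in WT. Pycr1, which completes proline, rose by 2.15 and 1.97.

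Glud1, glutamate dehydrogenase, had 153, 149 and 148 CPM in KO and 140, 126 and 139 CPM in WT at 48 hr, and 109, 122 and 111 CPM in KO and 92.7, 95.3 and 86.1 CPM in WT at 0 hr. Each KO library was above each WT library at either time. It rose by 0.40 in KO (SE 0.0914, edgeR adjusted p = 0.00154) and 0.56 in WT (SE 0.0916, edgeR adjusted p = 8.98e-05), with values of -0.23 (called lower, adjusted p = 0.0247) and -0.11 under upper-quartile scaling.

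The largest change of all 33 was that of Cth, the enzyme that frees cysteine from cystathionine. Cth had 75.9, 61.5 and 110 CPM in KO and 64.2, 76.6 and 63.2 CPM in WT at 48 hr, against 0.627, 0.539 and 0.132 CPM in KO and 0.667, 0.0988 and 0.193 CPM in WT at 0 hr. Its log2 fold change was 7.60 in KO (SE 0.484, edgeR adjusted p = 7.34e-09) and 7.69 in WT (SE 0.497, edgeR adjusted p = 7.93e-09), and without WT 0 hr replicate 1 the WT value was 8.82. Cbs, which makes cystathionine from homocysteine and serine, was scarce. It had 2.49, 2.51 and 1.87 CPM in KO and 0.618, 1.13 and 0.563 CPM in WT at 48 hr, and at 0 hr it was counted in a single library of each genotype, at 0.277 CPM in KO and 0.176 CPM in WT. Its rise passed the edgeR test in both genotypes (adjusted p = 0.0018 in KO and 0.0108 in WT), but the fitted size rests on those single libraries, with log2 values of 3.96 to 9.75 in KO and 3.06 to 8.21 in WT when 1 library was left out. The Cbs call ended in WT with DESeq2 (3.82, adjusted p = 0.0562), and with transcripts as features in both genotypes (edgeR adjusted p = 0.0953 in KO and 0.476 in WT). Odc1, which makes putrescine, the entry to polyamines, had 555, 641 and 536 CPM in KO and 533, 516 and 537 CPM in WT at 48 hr, against 81.8, 72.8 and 54.5 CPM in KO and 67.7, 86 and 63.6 CPM in WT at 0 hr. It rose by 3.05 in KO and 2.87 in WT.

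Most myeloid, erythroid, platelet, T cell and NK cell markers fell with stimulation, whereas plasma cell markers were split. Of 5 NK cell markers 3 fell in KO, and 4 fell and 1 rose in WT. Of 5 plasma cell markers 3 rose and 2 fell in each genotype. The summed myeloid markers were at 14.8 to 31.9 CPM in KO and 15.7 to 16.6 CPM in WT at 48 hr, against 130 to 383 and 124 to 250 CPM at 0 hr, and 8 of 8 fell in each genotype. Erythroid and platelet markers were at 6.59 to 15.6 CPM in KO and 12.2 to 15.1 CPM in WT at 48 hr, against 348 to 3400 and 635 to 946 CPM at 0 hr, and 7 of 7 tested fell in each. Of 8 T cell markers 6 fell in KO and 7 in WT, and their sum was 44.3 to 112 CPM in KO and 37.8 to 41.7 CPM in WT at 48 hr, against 59.7 to 124 and 60.3 to 69.8 CPM at 0 hr. Most of that sum was Lck, a kinase gene, with 110, 108 and 41.9 CPM in KO and 35.3, 35.2 and 39.4 CPM in WT at 48 hr, and 90.8, 85.7 and 43.5 CPM in KO and 41.1, 43.8 and 44.2 CPM in WT at 0 hr, while the T cell receptor chain Cd3d had 0.633 to 0.838 CPM in KO and 0.875 to 1.19 CPM in WT at 48 hr. At 48 hr Mpo was at 0 in 5 of 6 libraries. The part of these cells in the 33 genes' changes was not tested.

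At 48 hr 1 of the 33 genes differed between KO and WT by the edgeR test, beside 2.02% of all tested genes (1.47% higher and 0.544% lower). That gene was Slc7a11, whose level in KO was 6.95 ± 1.11 CPM and in WT 3.18 ± 0.376 CPM (SD, n = 3 each). The log2 fold change was 1.13 (SE 0.187, 95% interval 0.73 to 1.53, edgeR adjusted p = 0.00656), a 2.19-fold higher level in KO. At 0 hr the difference was -0.03 (95% interval -0.41 to 0.35). The test of whether the 48 hr and 0 hr differences differ gave 1.16 (95% interval 0.60 to 1.71, unadjusted p = 0.000551) and did not pass over all genes with edgeR (adjusted p = 0.136), while DESeq2 (adjusted p = 0.00187) and edgeR's likelihood ratio test (adjusted p = 0.0145) passed it. Leaving out WT 48 hr replicate 8 ended the 48 hr call (1.01, adjusted p = 0.0537), and the call held in the other 11 fits without 1 library, among them that without KO 48 hr replicate 12 (1.02, adjusted p = 0.0103).

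The summed plasma cell markers of each KO library were above those of each WT library at both times, though barely so at 0 hr, where the nearest were at 551 and 550 CPM. At 0 hr their sum was 551 to 887 CPM in KO and 411 to 550 CPM in WT, with 1 of 5, Sdc1, called higher (1.03, edgeR adjusted p = 0.0483). At 48 hr the sum was 769 to 985 CPM in KO and 651 to 665 CPM in WT, with 2 of 5 higher by edgeR: Prdm1 (33.5, 31 and 59.5 CPM in KO, against 11, 11 and 14.9 CPM in WT) and Sdc1 (11.5, 13.6 and 9.78 CPM in KO, against 5.3, 5.81 and 5.3 CPM in WT). Of 5 NK cell markers, Prf1 was higher in KO (4.73, 6.81 and 1.69 CPM, against 0.901, 1.22 and 0.768 CPM in WT). No T cell, myeloid, erythroid or platelet marker passed, and Lck was at 1.24 (edgeR adjusted p = 0.0618). Whether such cells carry the Slc7a11 difference was not tested.

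The deposited table splits Slc7a11 into 2 transcripts. At 48 hr uc008pdi.1 had 3.35, 3.77 and 4.38 CPM in KO and 1.31, 0.459 and 1.05 CPM in WT, and uc008pdj.1 had 2.39, 3.4 and 3.55 CPM in KO and 1.91, 2.32 and 2.48 CPM in WT. The groups were apart for the first of these and overlapped for the other. uc008pdi.1 held 55.2% of the gene's counts in KO and 29.8% in WT at 48 hr, and 9.46% and 5.36% at 0 hr. In a fit of all transcripts the KO to WT difference at 48 hr was 2.00 for uc008pdi.1 (edgeR adjusted p = 0.103) and 0.45 for uc008pdj.1 (adjusted p = 0.495), so neither passed alone. Over time uc008pdj.1 fell by 1.69 in KO and 2.23 in WT, whereas uc008pdi.1 rose by 1.84 in KO (adjusted p = 0.00362) and was at 0.66 in WT (adjusted p = 0.192).

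**Figure D3:**
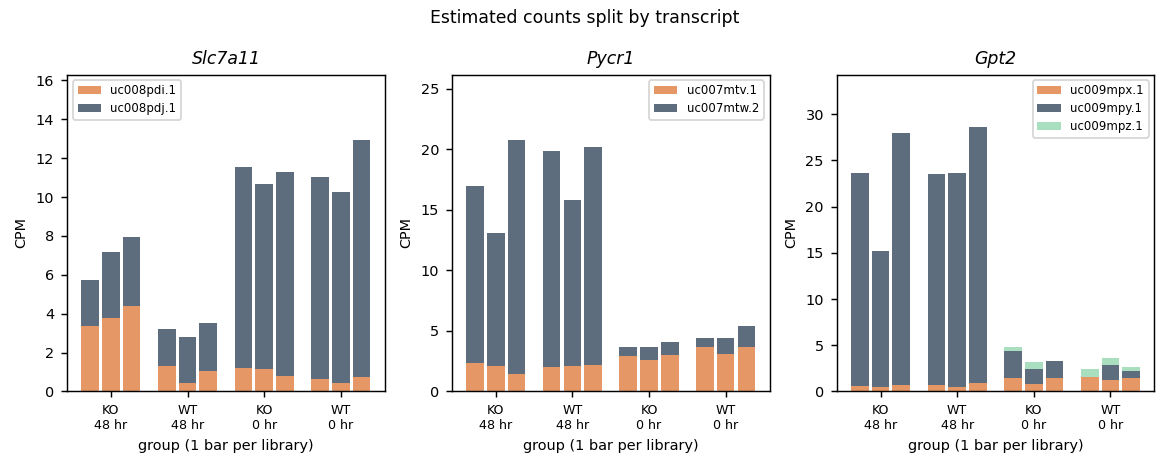
Estimated counts of Slc7a11, Pycr1 and Gpt2, as CPM per library and stacked by transcript, in the order KO 48 hr, WT 48 hr, KO 0 hr and WT 0 hr. The fall of Slc7a11 lies in uc008pdj.1, and the KO excess at 48 hr is mostly uc008pdi.1 (3.35 to 4.38 CPM in KO, against 0.459 to 1.31 CPM in WT). The rises of Pycr1 and Gpt2 lie in uc007mtw.2 and uc009mpy.1.

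Transcript fits of the whole set differed in part from the gene fits. The genotype call of Slc7a11 at 48 hr was not kept. More falls over time were called than the 3 in KO and 2 in WT with genes. Of the 61 transcripts tested, none was called between genotypes at 48 hr or 0 hr or in the interaction, beside 0.341%, 0.227% and 0.00819% of 36629 transcripts by edgeR, the one tool run on transcripts. At an unadjusted p below 0.05 there were 5, 6 and 4. Over time 36 rose and 9 fell in KO, and 35 rose and 11 fell in WT, beside 49.8% and 52.5% of all transcripts called in either direction. Some genes changed the transcript their reads were assigned to. For Pycr1, uc007mtw.2 held 88.3% of counts in KO and 88.7% in WT at 48 hr, against 26.3% and 26.4% at 0 hr. For Gpt2, uc009mpy.1 held 97.2% in each genotype at 48 hr, against 54.4% in KO and 26.2% in WT at 0 hr. Salmon divides reads among overlapping transcripts by a model, so such shares at low counts are estimates.

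The other 32 genes did not pass at 48 hr. Libraries of the 2 genotypes did not overlap for 7 of the 33 (21.2%), beside 20.2% of all tested genes (10.7% higher and 9.53% lower): Slc7a11, Mthfd1l, Glud1 and Cbs were higher in each KO library, and Phgdh, Shmt1 and Mthfd2 lower. Those differences were small apart from Slc7a11 and Cbs. Phgdh was at -0.21 (95% interval -0.45 to 0.02), Shmt1 at -0.20 (-0.58 to 0.18), Mthfd2 at -0.08 (-0.39 to 0.23), Mthfd1l at 0.28 (-0.03 to 0.59) and Glud1 at 0.15 (-0.04 to 0.35). Cbs was at 1.57 with an interval of -0.38 to 3.51 (edgeR adjusted p = 0.474). The median difference of the 33 was -0.03, and 0.01 over all genes.

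For 28 of the 33 genes the 95% interval at 48 hr lay inside a 2-fold difference in either direction. Slc7a11 and 4 genes with wide intervals, Aldh1l2, Slc1a4, Chac1 and Cbs, made up the rest. Asns was at -0.22 (-0.82 to 0.39), Psat1 at -0.01 (-0.33 to 0.32), Slc7a5 at -0.01 (-0.47 to 0.46), Atf4 at -0.13 (-0.45 to 0.19), Cth at 0.28 (-0.45 to 1.00) and Odc1 at 0.13 (-0.19 to 0.45).

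**Figure D4:**
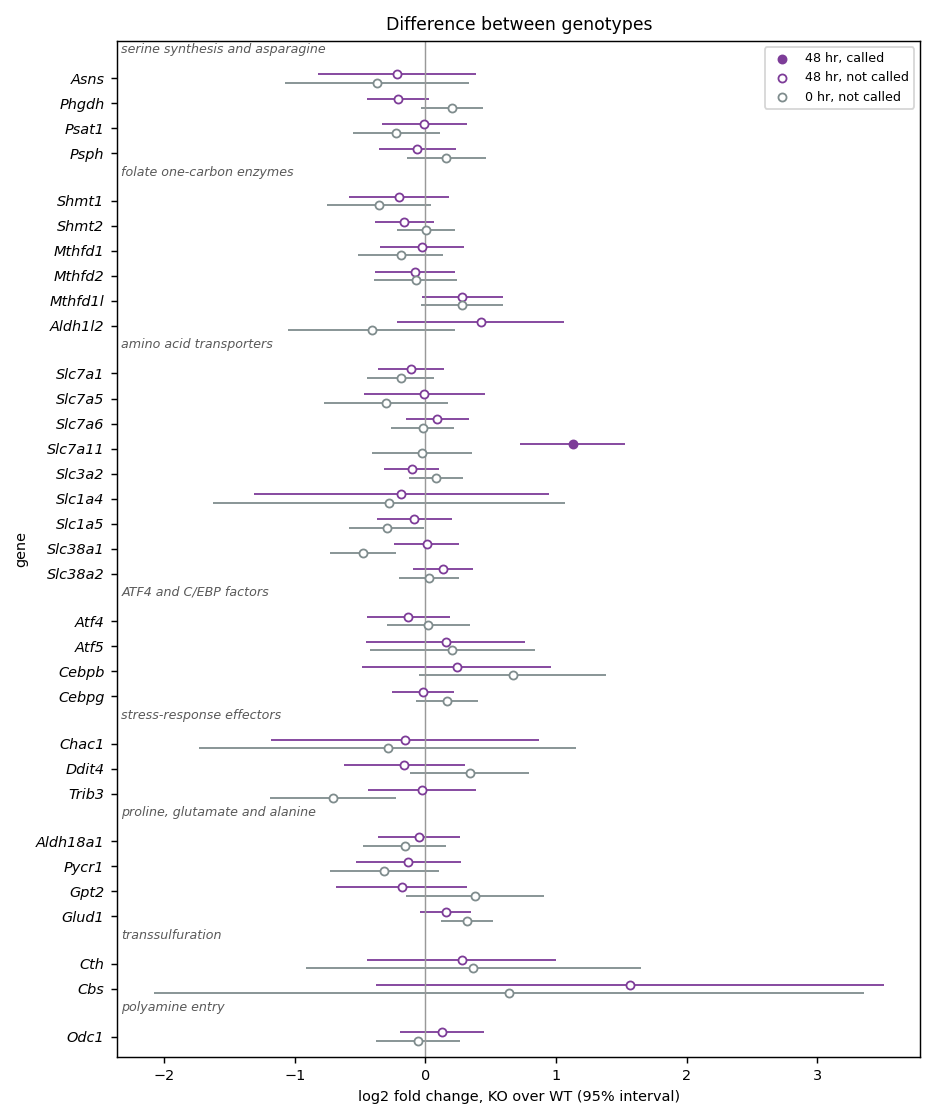
Log2 fold change of KO over WT for each of the 33 genes at 48 hr (purple) and 0 hr (grey), with 95% intervals. The only filled point, Slc7a11 at 48 hr (1.13), passed the edgeR test. Most other intervals span 0, with Slc38a1 (-0.48), Trib3 (-0.71), Glud1 (0.32) and Slc1a5 (-0.30) at 0 hr clear of it without adjustment.

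At 0 hr 0 of the 33 genes differed between KO and WT by edgeR's quasi-likelihood test, beside 1.11% of all tested genes (0.680% higher and 0.429% lower). At an unadjusted p below 0.05 there were 4, DESeq2 called 2, limma-voom 0 and the likelihood ratio test 1. Libraries did not overlap for 5 of 33 (15.2%), beside 14.9% of all genes (7.02% higher and 7.92% lower): Slc3a2 and Glud1 were higher in KO, and Slc38a1, Trib3 and Pycr1 lower. The median of the 33 was -0.03, and 0.00 over all genes. For 25 of the 33 the 95% interval lay inside a 2-fold difference.

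Slc38a1 came nearest to a call. It had 132, 169 and 127 CPM in KO at 0 hr, against 210, 195 and 192 CPM in WT, and 219, 219 and 198 CPM in KO, against 216, 196 and 220 CPM in WT, at 48 hr. The unstimulated KO libraries were the lowest of the 12. The 0 hr difference was -0.48 (SE 0.116, 95% interval -0.73 to -0.23, edgeR adjusted p = 0.0746). DESeq2 (adjusted p = 0.00316) and the likelihood ratio test (adjusted p = 0.0109) called it, as did edgeR without KO 0 hr replicate 5 (-0.62, adjusted p = 0.0143), while without KO 0 hr replicate 6 it was at -0.40 (adjusted p = 0.144). Its most abundant transcript, uc007xkj.2, overlapped between genotypes at 0 hr (-0.16, edgeR unadjusted p = 0.301). Lower values were those of uc007xkh.2 (-0.78, edgeR adjusted p = 0.0576), uc007xkk.2 (-1.25, edgeR adjusted p = 0.289) and uc007xkl.2 (-0.33). The scarce uc007xki.2 went the other way (4.95), with 15 counts in KO 0 hr replicate 6.

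The other values clear of 0 were smaller or less certain. Glud1 was at 0.32 at 0 hr (SE 0.0914, edgeR adjusted p = 0.143), called by DESeq2 (adjusted p = 0.00679). Trib3 was at -0.71 (SE 0.225, edgeR adjusted p = 0.204) and Slc1a5 at -0.30 (SE 0.133, edgeR adjusted p = 0.438). Slc1a4 was at -0.28 (95% interval -1.63 to 1.07), and it became -2.15 (edgeR adjusted p = 0.0188) without KO 0 hr replicate 6, whose 1.48 CPM exceeded the 3 WT libraries.

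The interaction asks whether stimulation changed a gene by a different amount in KO and WT. Of the 33 genes 0 passed with edgeR, beside 0.115% of all tested genes (0.0680% higher and 0.0471% lower), and 4 had an unadjusted p below 0.05: Slc7a11 (1.16), Trib3 (0.68), Slc38a1 (0.49) and Phgdh (-0.41). DESeq2 and the likelihood ratio test each called 1, Slc7a11, and limma-voom 0. The stimulation and genotype contrasts share libraries, so their values stand side by side here and are not independent. For 22 of 33 genes the interval of the difference lay inside 2-fold, and for the other 11, among them Asns (-0.77 to 1.08), Cth (-1.54 to 1.36) and Chac1 (-1.61 to 1.88), it did not.

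Genes that share these routes were read from 7 lists with 132 entries, of which 119 were tested. In KO 70 rose and 16 fell with stimulation, and in WT 70 rose and 24 fell, with medians of 0.80 and 0.87. The share called was 72.3% in KO and 79.0% in WT, beside 70.7% and 73.9% of all tested genes. By list it ran between 65.0% and 85.7% in KO and between 68.2% and 95.5% in WT. Of 22 other folate and methionine cycle genes 16 rose and 2 fell in KO, and 19 rose and 2 fell in WT. The largest rise was that of Tyms, which makes thymidylate with a folate carbon (4.44 in KO and 4.51 in WT), and the largest falls were Gldc, glycine decarboxylase, in KO (-2.45) and Ftcd, an enzyme of histidine breakdown, in WT (-2.14). Of 22 other transporters 8 rose and 7 fell in KO, and 6 rose and 9 fell in WT. Slc7a3, a cationic carrier, had 53.6, 49.7 and 66 CPM in KO and 63.2, 66 and 63.5 CPM in WT at 48 hr, against 0.0949, 0.123 and 0.323 CPM in KO and 0.491, 0.356 and 0.228 CPM in WT at 0 hr, a log2 change of 8.22 and 7.48, with a KO value of 8.97 without KO 0 hr replicate 6. Slc38a5, a glutamine carrier, had 0.148, 0.132 and 0.13 CPM in KO and 0.103, 0.297 and 0.23 CPM in WT at 48 hr, against 8.7, 1.02 and 1.12 CPM in KO and 1.79, 1.25 and 1.37 CPM in WT at 0 hr. It changed by -4.69 in KO and -2.80 in WT, and the KO value was -2.94 without KO 0 hr replicate 4, the library at 8.7 CPM.

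Among glutamine, glutamate, proline and branched-chain genes 9 of 15 rose in each genotype, while 1 fell in KO and 2 in WT. Bcat1, the cytosolic branched-chain transaminase, rose by 6.31 in KO and 5.93 in WT, and Bckdha, of the complex that degrades the resulting keto acids, changed by -1.55 and -0.91. Of 18 integrated stress response genes 11 rose and 1 fell in KO, and 10 rose and 3 fell in WT. Atf3, a factor downstream of ATF4, rose by 4.57 in KO (5.51 without KO 0 hr replicate 5) and 5.42 in WT, and Eif2ak3, the kinase PERK, changed by -0.82 and -1.31. Gdf15, a stress-induced cytokine, had 18, 9 and 18 counts in KO at 48 hr against 0 in each KO library at 0 hr, which is at least 23.8-fold higher when 3 counts are taken as the limit for the 3 unstimulated libraries together. In WT Gdf15 was at 0.17 and was not called.

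Of 9 glutathione genes 7 rose in KO and 8 in WT, and none fell, with Gsr, glutathione reductase, the largest (1.75 and 2.42). Of 14 polyamine genes 10 rose and 2 fell in KO, and 9 rose and 4 fell in WT. Srm, spermidine synthase, rose by 3.62 in KO and 3.56 in WT, while Smox, spermine oxidase, changed by -1.06 and -2.14, calls that both ended with transcripts as features (edgeR adjusted p = 0.364 in KO and 0.333 in WT). The KO call of Smox also ended without KO 0 hr replicate 4 (-0.72, adjusted p = 0.108) and without KO 48 hr replicate 12 (-0.85, adjusted p = 0.076). Of 20 genes of amino acid sensing to mTORC1 9 rose in each genotype, and 4 fell in KO and 5 in WT. Lamtor5, a Ragulator subunit, rose by 1.97 in KO and 2.41 in WT, Sesn1, a sestrin that restrains mTORC1, changed by -1.60 and -1.69, and Slc38a9, the lysosomal arginine sensor, by -1.23 and -1.69.

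Between genotypes few of the 119 passed. At 48 hr 3 were higher and 1 lower in KO (3.36%, beside 2.02% of all genes), and at 0 hr 2 were lower (1.68%, beside 1.11%). Ahcy, which clears S-adenosylhomocysteine after methyl transfer, had 68.7, 68.4 and 73.3 CPM in KO, against 204, 191 and 190 CPM in WT (log2 fold change -1.48, SE 0.186, edgeR adjusted p = 0.00102). At 0 hr Ahcy had 5.45, 7.73 and 10.2 CPM in KO, against 22.9, 30.6 and 20.6 CPM in WT (-1.66, SE 0.192, edgeR adjusted p = 0.000542). The groups were apart at both times, and both calls held in all 12 fits without 1 library and in all 10 other settings. Ahcy rose with stimulation by 3.17 in KO and 2.98 in WT, and the interaction was 0.18 (edgeR adjusted p = 0.902).

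The 3 genes higher in KO at 48 hr were low or moderate in level. Slc38a9 had 20.4, 20.1 and 21.3 CPM in KO, against 13.7, 10.5 and 13.1 CPM in WT (0.73, edgeR adjusted p = 0.00747). Slc1a1, a glutamate and cysteine carrier, had 1.82, 2.4 and 2.1 CPM in KO, against 0.953, 0.54 and 0.563 CPM in WT (1.62, edgeR adjusted p = 0.0182). Smox had 2.64, 2.22 and 1.45 CPM in KO, against 0.541, 0.702 and 0.486 CPM in WT (1.86, edgeR adjusted p = 0.0312). Leaving out 1 library ended the call in 1 of 12 fits for Slc38a9 (adjusted p = 0.0513 without WT 48 hr replicate 8), in 3 for Slc1a1 (up to 0.0995) and in 5 for Smox (up to 0.147). With transcripts as features the calls of Slc1a1 (edgeR adjusted p = 0.536) and Smox (0.662) ended, and limma-voom did not call Smox (adjusted p = 0.135). At 0 hr Gdf15, with 0 counts in each KO library and 7, 16 and 11 counts in WT, was at least 12.8-fold lower in KO with the same limit of 3 counts (edgeR adjusted p = 0.0135, and 0.0501 without WT 0 hr replicate 3). With transcripts as features Gdf15 was not called (edgeR adjusted p = 0.0557), and DESeq2 gave it no adjusted p.

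**Figure D5:**
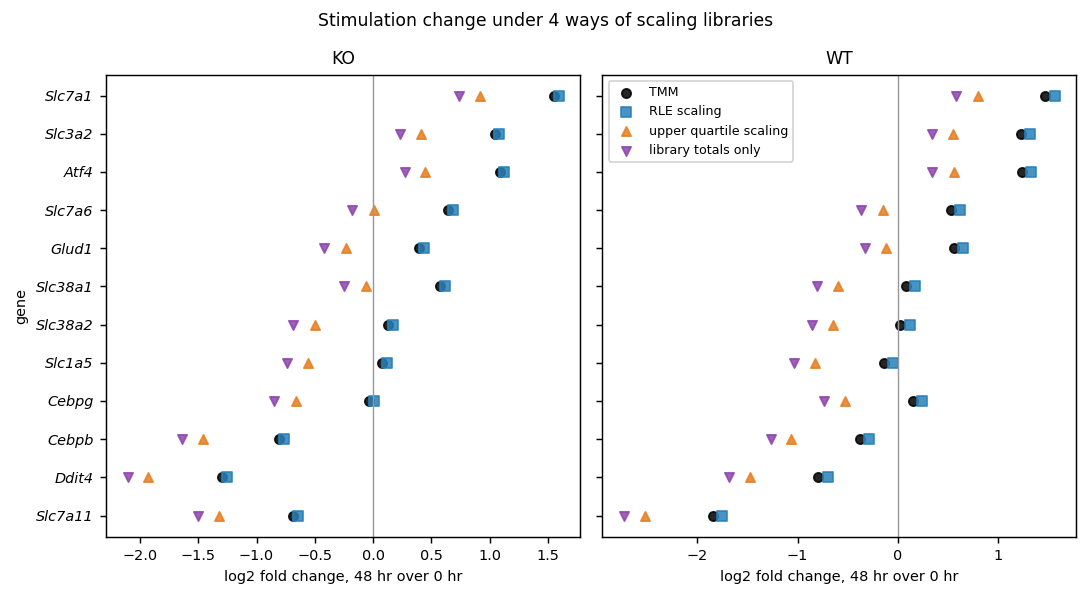
Log2 fold change of 48 hr over 0 hr for 12 genes with modest changes, under 4 scalings of library size, in KO (left) and WT (right). RLE (relative log expression) lies beside the main TMM value, and upper-quartile scaling and library totals move every gene left by similar amounts, so that Slc38a1, Slc38a2 and Glud1 pass from above to below 0 in both genotypes, while Slc7a11 and Ddit4 stay below 0 throughout.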

How the data were processed

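Total RNA was amplified with a SMART-Seq kit, which does not mark strand, and 12 libraries were sequenced in paired ends, per the labels' protocols. The values used are estimated counts per transcript, deposited by the authors as whole numbers in 1 table. The submitters' processing notes name Salmon 0.8.2, Trimmomatic 0.36, DESeq2 1.14.1, bcl2fastq 2.20.0.422 and the mm10 build. Salmon divides reads between similar sequences, so genes with close copies are uncertain.

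The 63759 transcripts were summed to 32699 symbols after spaces were removed from 344 names. edgeR 4.0.16 in R 4.3.3 (filterByExpr, which kept 19125 genes, TMM scaling with factors of 0.723 to 1.42, and the robust quasi-likelihood F test with 8 residual degrees of freedom) fitted all 12 libraries as 4 groups. Calls are at a Benjamini-Hochberg adjusted p below 0.05, adjusted across every tested gene. CPM uses TMM-scaled library sizes, and levels are not per length, so genes are not ranked by level. Precision is given by standard errors and 95% intervals. Within each group no library was a copy of another. The procedure was tested on simulated data. The 33 genes, the companion lists and the rule for naming genes were chosen with earlier results of these data known: every one of the 33 is described, in full where largest or smallest in its group or called between genotypes, and companions are named where called between genotypes or largest in their list.

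Alternatives were DESeq2 1.42.0, limma-voom (limma 3.58.1), edgeR's likelihood ratio test, scaling by RLE (relative log expression) or by the upper quartile, no filter, at least 1 CPM in 3 libraries, separate fits, each transcript as a feature, and leaving out each library. With transcripts as features each gene was represented by its most abundant transcript. Library totals without scaling were added after seeing the data. Positions are from GENCODE M21 on mm10, and promoter sequences from RefSeq (GRCm38.p6). Figures used matplotlib 3.10.9. One marker gene is not reported here.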

Additional observations from a re-analysis of the deposited data

How the results depend on the processing

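The count of genes called at 0 hr was 2 with DESeq2, 1 with the likelihood ratio test and 0 to 1 when 1 library was left out, beside 0. At 48 hr it was 0 with transcripts as features, where Slc7a11 is represented by its most abundant transcript, and 0 to 1 when 1 library was left out, beside 1. The interaction count was 1 with DESeq2 and 1 with the likelihood ratio test, beside 0, and 0 in every fit without 1 library. The stimulation counts ran from 29 to 30 in KO and 27 to 28 in WT without 1 library. Among results called with either setting, sign changes occurred in the stimulation contrasts, and values of the 33 genes called with neither changed sign 6 times in KO and 8 times in WT over time, 30 times at 48 hr, 30 times at 0 hr and 45 times in the interaction. With upper-quartile scaling KO values were -0.56 for Slc1a5, -0.060 for Slc38a1, -0.50 for Slc38a2 and -0.23 for Glud1, and WT values were -0.15 for Slc7a6, -0.59 for Slc38a1, -0.65 for Slc38a2, -0.53 for Cebpg and -0.11 for Glud1. With library totals only (chosen after seeing the data) KO values were -0.18 for Slc7a6, -0.74 for Slc1a5, -0.25 for Slc38a1, -0.69 for Slc38a2 and -0.42 for Glud1, and WT values were -0.36 for Slc7a6, -0.81 for Slc38a1, -0.86 for Slc38a2, -0.74 for Cebpg and -0.32 for Glud1. These scalings lower the median of all genes (by 0.631 in KO and 0.673 in WT for the upper quartile, and 0.814 and 0.887 for library totals), which by construction lowers every gene with it. The most abundant transcript of Aldh1l2 was at -0.22 in KO. With the filter of 1 CPM in 3 libraries the median shift of a gene from its main value was -0.181 in KO and -0.154 in WT. The median of the genes kept was -0.18 in KO and -0.17 in WT, beside -0.30 and -0.39 over all genes of the main fit. Over all genes, calls at 0 hr were 645 with DESeq2, 547 with the likelihood ratio test and 75 with the libraries of the contrast only, beside 212, and with 1 library left out at least 79 (WT 0 hr replicate 3) and at most 426 (KO 0 hr replicate 6). At 48 hr they were 1069 with DESeq2, 1000 with the likelihood ratio test and 192 with limma-voom, beside 386, and at least 136 (WT 48 hr replicate 7 left out) and at most 1080 (KO 48 hr replicate 12 left out). For the interaction they were 220 with DESeq2 and 184 with the likelihood ratio test, beside 22, and at least 3 and at most 90 with the same libraries left out. The causes of these differences were not tested. No paired analysis was possible because the groups share no replicate number.

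Slc1a4, Chac1, Cth and Cbs had standard errors of 0.484 or more on the log2 scale over time in each genotype. Cbs had 18 counts in KO and 10 in WT at 0 hr; the part of depth in these errors was not tested.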
